A study of Sus scrofa with 4 samples.

Results

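The genes described here encode the T cell receptor complex and the coreceptors and costimulatory receptors that act beside it, in the ileum of suckling piglets. The 10 genes were *CD3E*, *CD3G*, *CD247*, *CD2*, *CD4*, *CD5*, *CD8A*, *CD28*, *CTLA4* and *FOXP3*. A probe was taken for a gene if its array annotation was a RefSeq transcript of that gene in the NCBI gene table of the pig, and 14 of 43603 non-control probes met this. They covered 8 genes, since *CD5* and *CD28* had no probe under this rule and were not analysed here. Of the 14 probes, 11 were tested, with at least 1 for each of the 8 genes. The remaining 3 probes (1 of *CD4*, 2 of *FOXP3*) were not well above background on any array.

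The ileum slices came from piglets aged 16 days, born to Yorkshire × Landrace dams and Duroc sires and fed by lactating sows. Low weight gain had 2 arrays (a and b), each from RNA pooled over 2 piglets, and was set against high weight gain, which also had 2 arrays (a and b), each from RNA pooled over 3 piglets. By its title, the series asks how weight gain in early lactation bears on the developing immune system. Its design text speaks of weight at birth instead, and the sample labels were followed here. Nothing in the labels says whether arrays a and b came from separate pools, so the p-values measure the spread between arrays, which may be technical, and not the variation between piglets. The 4 arrays shared 1 slide and 1 scan.

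T cells recognise peptides on MHC molecules through the T cell receptor, whose own chains cannot signal. Signals pass through the CD3 chains (encoded by *CD3E*, *CD3G* and *CD3D*) and the zeta chain (*CD247*), whose tails are phosphorylated by the kinase LCK and then bind the kinase ZAP70. CD4 and CD8 bind MHC class II and class I and bring LCK to the receptor. CD2 aids adhesion, CD28 gives the costimulatory signal and CTLA4 opposes it by taking the same ligands. FOXP3 is the defining transcription factor of regulatory T cells. In pigs, the CD8 alpha chain is found on cytotoxic T cells, on natural killer (NK) cells and on many activated or memory CD4+ T cells, and gamma delta T cells are abundant, some of them without CD2. Intraepithelial and lamina propria T cells fill the gut wall in the weeks after birth.

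In the plots, probe 1 is A_72_P088461 of *CD3G*, A_72_P374908 of *CD247*, A_72_P077421 of *CD4*, A_72_P077466 of *CD8A* and A_72_P441214 of *FOXP3*, and probes 2 and 3 are the others of each gene. Values are log2 spot signals with the 75th percentile of the same array subtracted, so that 0 stands for the 75th percentile of all non-control spots on that array. A level read by one probe cannot be set against that read by another, so only differences between arrays are compared. In whole tissue, fewer cells of a type and less RNA per cell cannot be told apart.

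In low-gain ileum, 9 of the 11 tested probes had a higher mean than in high-gain ileum, against 52.7% of all tested probes. Both probes of *CD247* had a lower mean. The largest differences were those of 1 of the 2 *CD8A* probes (1.93-fold higher), of 1 *FOXP3* probe (1.91-fold higher) and of the 2 *CD247* probes (1.59-fold and 1.81-fold lower). No probe passed limma's test across all probes, at an adjusted p under 0.05 (0 of 11 higher and 0 of 11 lower, against 0.0962% and 0.144% of 33265 tested probes). At an unadjusted p under 0.05, limma counted 5 of 11 higher and 2 of 11 lower, against 9.82% and 8.57% of all tested probes. With a prior variance that follows signal intensity, 1 of 11 rose (*CD8A*) and 2 of 11 fell (*CD247*), against 2.26% and 1.50%. The 5 higher probes at an unadjusted p under 0.05 were of *CD3E*, *CD3G*, *CD2*, *CD8A* and *FOXP3*. These genes were chosen with earlier results of these data known, so counts above the shares of all probes are a description only.

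**Figure D1:**
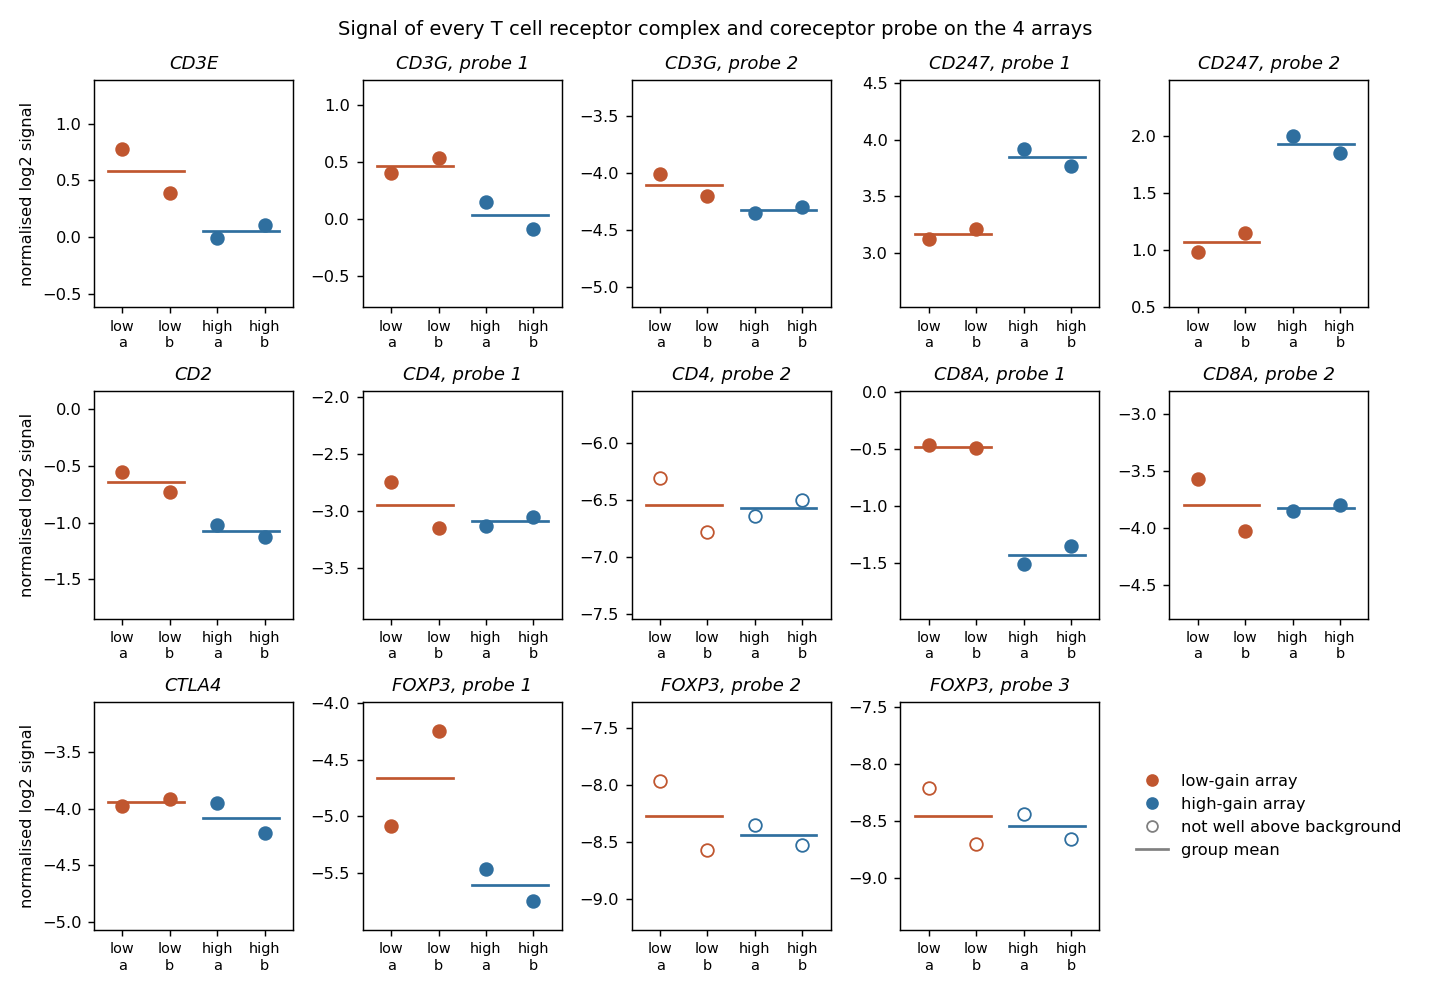
Normalised log2 signal (vertical axes, each 2 units tall; 0 is the array's 75th percentile) of all 14 probes on the low-gain arrays a and b and the high-gain arrays a and b. Bars are group means, and open circles mark probes not well above background; the low-gain points lie above the high-gain points for *CD3E*, both *CD3G* probes, *CD2*, *CD8A* probe 1 and *FOXP3* probe 1 and below them for both *CD247* probes, and the 3 panels of open circles show no separation.

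Both low-gain arrays lay above both high-gain arrays for 6 of 11 probes (54.5%), where 27.6% of all tested probes did so, and below them for 2 of 11 (18.2%), where 26.9% did. The 2 probes of a gene share their target, so these counts are not over independent features. The median log2 change was 0.22 over the 11 probes and 0.43 over the 8 genes with 1 probe each, and it was 0.02 over all tested probes. The median absolute change was 0.44 over the 11 probes and 0.21 over all tested probes. Over the same 11 probes, the median absolute difference between arrays was 0.17 between the low-gain arrays and 0.15 between the high-gain arrays, and 0.38 to 0.57 between arrays of different groups. Over all 31471 probes well above background on every array, it was 0.14 within either group and 0.17 to 0.29 between groups. Between 32835 and 33972 of 43803 non-control spots were well above background on each array, and no spot was saturated. Repeat spots of a probe scattered most on low-gain array a, where their median SD was 0.14 on the log2 scale, and by 0.084 to 0.091 on the other arrays. An exact permutation test on 4 arrays cannot give a two-sided p under 0.333, so the fit over all probes was used for every test of a change.

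The CD3 chains come first in the complex. *CD3E* (probe A_72_P165731) encodes CD3 epsilon, which pairs with the gamma or delta chain. Its normalised log2 signal was 0.77 and 0.39 on low-gain arrays a and b, against -0.0042 and 0.11 on high-gain arrays a and b. Expressed as a share of the array's 75th percentile, these were 171% and 131% in low gain and 99.7% and 108% in high gain. The groups did not overlap, but the low-gain arrays differed from each other by 0.38. The log2 change was 0.53 ± 0.17 (SE, n = 2 arrays per group, 1.44-fold, 95% interval 0.055 to 1.002, limma adjusted p = 0.244). Without the noisier low-gain array a it was 0.34, and without low-gain array b it was 0.72.

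*CD3G* encodes CD3 gamma and had 2 probes. Probe A_72_P088461 read 0.40 and 0.53 on the low-gain arrays, against 0.15 and -0.09 on the high-gain arrays. Both low-gain values lay above both high-gain values, with a log2 change of 0.44 ± 0.14 (SE, 95% interval 0.06 to 0.81, limma adjusted p = 0.235). Probe A_72_P761021 was dimmer, at -4.003 and -4.20 on the low-gain arrays and -4.35 and -4.29 on the high-gain arrays. Its change ran the same way, at 0.22 ± 0.12 (limma adjusted p = 0.399), and its 95% interval of -0.11 to 0.55 held 0. It was 0.12 without low-gain array a and 0.32 without low-gain array b. The gap between the probes, taken array by array, did not separate the groups (4.40 and 4.73 in low gain, 4.50 and 4.21 in high gain, exact permutation p = 0.667).

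*CD3D*, the gene of the delta chain, is not among the 10 genes but lies between *CD3E* and *CD3G*, with no other gene of the NCBI table between it and either. Its probe A_72_P185936 read -3.16 and -2.86 on the low-gain arrays and -2.66 and -2.94 on the high-gain arrays, a log2 change of -0.21 ± 0.17. Its other probe, A_72_P504254, gave 0.08 ± 0.24. The groups overlapped on both probes (limma adjusted p = 0.541 and 0.869), so no direction of change can be read for *CD3D*.

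*CD247* encodes the zeta chain, which carries most of the phosphorylation sites of the complex and, in humans, also serves Fc receptor signalling in NK cells. Probe A_72_P374908 read 3.13 and 3.21 on the low-gain arrays, against 3.92 and 3.76 on the high-gain arrays. Probe A_72_P186391 read 0.99 and 1.16 on the low-gain arrays, against 2.01 and 1.86 on the high-gain arrays. On both probes the low-gain arrays were the low ones, and the arrays of a group differed by at most 0.17.

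The log2 change of *CD247* was -0.67 ± 0.12 (SE, n = 2 arrays per group) on A_72_P374908 and -0.86 ± 0.12 on A_72_P186391, with limma adjusted p = 0.161 and 0.144. With the intensity trend, both probes passed (adjusted p = 0.0165 and 0.0133), and the 95% intervals were -0.87 to -0.47 and -1.10 to -0.62. Only 4.40% and 2.25% of all tested probes had a lower log2 change. With the trend and 1 array left out in turn, the adjusted p of A_72_P186391 was 0.0884 without low-gain array a, 0.0344 without low-gain array b, 0.108 without high-gain array a and 0.0446 without high-gain array b. For A_72_P374908 it was 0.113, 0.0533, 0.108 and 0.0424 in the same order. The trend call of *CD247* was thus lost without either array a, and on A_72_P374908 also without low-gain array b. The sign of *CD247* was opposite to that of *CD3E* and *CD3G* on every probe. The difference between these genes' changes was not tested.

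CD2 is an adhesion and costimulatory receptor of T cells and NK cells. *CD2* (probe A_72_P178131) read -0.56 and -0.73 on the low-gain arrays, against -1.02 and -1.13 on the high-gain arrays. The groups did not overlap and the gap between them was wider than that within either. The log2 change was 0.43 ± 0.12 (SE, n = 2 arrays per group, 1.35-fold, limma adjusted p = 0.216), and 10.5% of all tested probes had a larger change in that direction.

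Of the coreceptors, *CD8A* encodes the alpha chain shared by CD8 alpha-alpha and alpha-beta dimers. Its probe A_72_P077466 read -0.47 and -0.50 on the low-gain arrays, against -1.51 and -1.36 on the high-gain arrays. As a share of the array's 75th percentile, this was 72.2% and 70.8% in low gain and 35.0% and 39.0% in high gain. The 2 low-gain arrays were nearly equal and far from both high-gain arrays.

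The log2 change of this *CD8A* probe was 0.95 ± 0.11 (SE, n = 2 arrays per group, 1.93-fold, 95% interval 0.64 to 1.26, limma adjusted p = 0.118). It was the largest change among the 11 probes, and 1.45% of all tested probes had a larger one in that direction. With the intensity trend it passed (adjusted p = 0.0165). With the trend and 1 array left out, the adjusted p was 0.103 without low-gain array a, 0.0601 without low-gain array b, 0.110 without high-gain array a and 0.0461 without high-gain array b. In the fit that gave these values without the trend, the smallest absolute log2 change that passed, over all tested probes, was 1.488.

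The other *CD8A* probe, A_72_P685866, did not show the difference. It read -3.57 and -4.02 on the low-gain arrays, which lay on either side of -3.85 and -3.80 on the high-gain arrays. Its log2 change was 0.03 ± 0.19 (95% interval -0.49 to 0.55, limma adjusted p = 0.941). Taken array by array, the first-named probe exceeded this one by 3.1002 and 3.53 in low gain and by 2.34 and 2.44 in high gain. These gaps did not overlap between groups, and 0.333, the smallest p that 4 arrays allow, was the exact permutation p. The higher *CD8A* signal in low gain therefore rests on 1 of 2 probes.

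*CD4* encodes the coreceptor of helper and regulatory T cells. Probe A_72_P077421 read -2.74 and -3.15 on the low-gain arrays, against -3.13 and -3.05 on the high-gain arrays. Low-gain array b lay below both high-gain arrays and low-gain array a above them. The log2 change was 0.15 ± 0.17 (SE, limma adjusted p = 0.669, n = 2 arrays per group), with a 95% interval of -0.34 to 0.63. The interval does not exclude a change of over 1.5-fold. The other probe, A_72_P306178, was not well above background on any array, so no fold is given for it.

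The inhibitory receptor gene *CTLA4* (probe A_72_P302909) read -3.98 and -3.92 on the low-gain arrays, against -3.95 and -4.21 on the high-gain arrays. High-gain array a lay between the low-gain arrays. The log2 change was 0.14 ± 0.14 (SE, n = 2 arrays per group, 95% interval -0.24 to 0.51, limma adjusted p = 0.612). It was 0.27 without high-gain array a and 0.0045 without high-gain array b. In the NCBI table *CTLA4* is the direct neighbour of *CD28*, its costimulatory counterpart.

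*FOXP3* had 3 probes, of which only A_72_P441214 was well above background. It read -5.08 and -4.25 on the low-gain arrays, against -5.46 and -5.74 on the high-gain arrays. Both low-gain values were the higher ones, but they differed from each other by 0.84, nearly as much as the groups did. The log2 change was 0.94 ± 0.33 (SE, n = 2 arrays per group, 95% interval 0.03 to 1.84, limma adjusted p = 0.263). Without low-gain array b it was 0.52, and without low-gain array a it was 1.36.

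The *FOXP3* signal was low. The processed intensity of A_72_P441214 was 12.1 and 24.5 on the low-gain arrays, against 10.99 and 8.79 on the high-gain arrays, where the median local background of the arrays was 17 to 18 before subtraction. The scanner software's own error estimate for this spot was 16.7% and 11.2% of the signal in low gain and 16.6% and 17.8% in high gain. The probes A_72_P465810 and A_72_P185401 were not well above background on any array. Under the normexp background correction with bright backgrounds replaced, the log2 change was 0.32, while that of the brighter *CD8A* probe was 0.80 and those of *CD247* were -0.69 and -0.87.

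**Figure D2:**
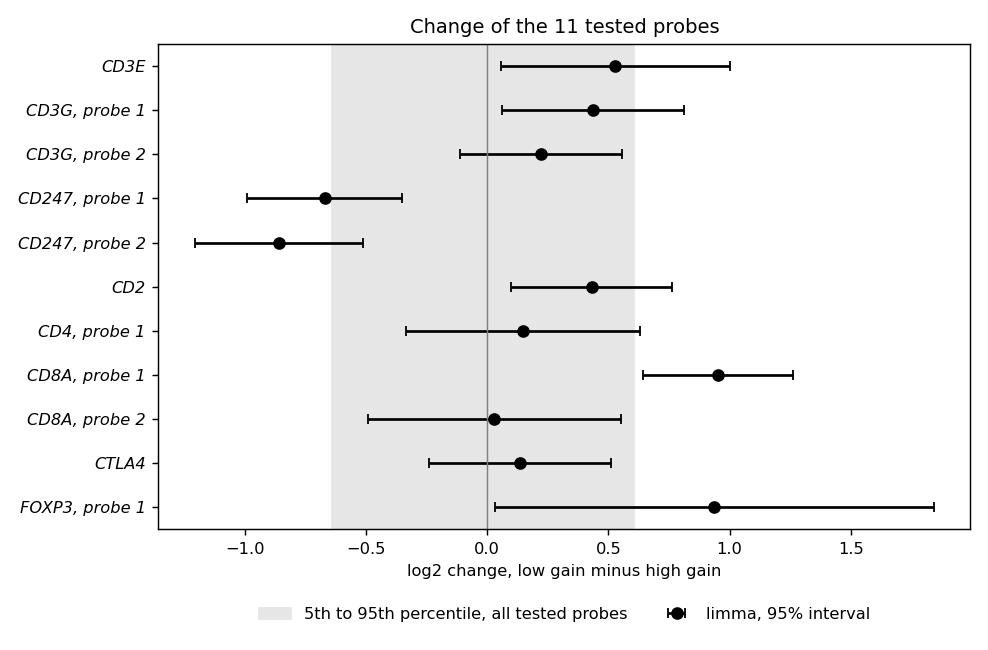
Log2 change, low gain minus high gain (horizontal axis), of the 11 tested probes, with 95% intervals from limma (n = 2 arrays per group). The shaded band holds the changes of all tested probes from the 5th percentile (-0.64) to the 95th (0.60); *CD8A* probe 1, *FOXP3* probe 1 and both *CD247* probes have estimates outside it.

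By the rule for profile likeness, the 5 named genes nearest to *CD3E* over the 4 arrays were *GZMM*, *CYP17A1*, *STC1*, *TNFSF13* and *TNC*. The measure was the Euclidean distance between 4-array profiles in log2 units, each with its own mean subtracted, over 2091 genes. Their distances were 0.090 for *GZMM*, 0.11 for *CYP17A1*, 0.12 for *STC1* and *TNFSF13*, and 0.14 for *TNC*. *CD2* was at 0.24 and *CD3G* at 0.45 (A_72_P088461) and 0.34 (A_72_P761021). The *FOXP3* probe A_72_P465810, not well above background on any array, was also at 0.45. *CD247* was at 1.26 and 1.45, the farthest of the 14 probes from *CD3E*. With only 4 arrays from 1 slide, many profiles lie close to each other, and the distances are a description.

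Other genes that act with the receptor were taken from lists. Of 29 further T cell surface genes, 14 were tested. None passed limma's test (0 of 14, with 3 at an unadjusted p under 0.05), and with the intensity trend 1 rose and 0 fell. Over all tested probes, 6117 of 33265 had an unadjusted p under 0.05, and 2.26% rose and 1.50% fell with the trend. These shares stand beside the counts of every list given here and below. The list's median log2 change was -0.13, against 0.02 over named genes with 1 probe each. Under normexp with bright backgrounds replaced, the list's median was -0.02. The gene that rose with the trend was *CCR9*, which encodes the chemokine receptor that guides T cells to the small intestine (0.57 ± 0.11, limma adjusted p = 0.172, and 0.0475 with the trend). *IL2RG*, the gene of the shared cytokine receptor gamma chain, differed by -0.60 ± 0.18 and its other probe by -0.80. The early activation gene *CD69* differed by -0.45 ± 0.14 and *THY1* by -0.51 ± 0.19. These 3 genes had limma adjusted p-values of 0.225 to 0.281. Under normexp with bright backgrounds replaced, their changes were -0.38 for *IL2RG*, -0.29 for *CD69* and -0.13 for *THY1*.

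Of 32 genes of T cell receptor signalling, 12 were tested. By limma, 0 of 12 passed, 5 had an unadjusted p under 0.05, and with the trend 0 rose and 1 fell. The median log2 change was -0.19. *NFATC1*, which encodes a calcineurin-dependent transcription factor, fell with the trend (-1.12 ± 0.24, limma adjusted p = 0.186, and 0.038 with the trend), but its other probe gave 0.14. *LCK*, the kinase gene named above, differed by 0.07 ± 0.12, with its other probe at -0.26. *SH2D1A*, an adaptor gene of T and NK cells, differed by 0.50 ± 0.12, and the NF-kB genes *RELA* and *NFKB1* by -0.73 ± 0.25 and -0.46 ± 0.16. Many genes of this list are also expressed outside T cells.

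Genes listed as costimulatory ligands had a median log2 change of -0.16 over 8 tested of 9. The list is mixed and does not measure costimulation as such. In it, *CD274* and *PDCD1LG2* encode inhibitory ligands, *CD40* encodes a receptor, and *CD59* is not particular to cells that present antigen. Of the 8 tested genes, 0 passed limma's test, with or without the trend, and 2 had an unadjusted p under 0.05. *CD80* and *CD86*, whose products bind CD28 and CTLA4, differed by -0.59 ± 0.12 and -0.28 ± 0.10 (limma adjusted p = 0.180 and 0.259), and their other probes by -0.39 and -0.63. *PDCD1LG2* differed by -0.49 ± 0.24 and *CD58*, the gene of the CD2 ligand in humans, by -0.18 ± 0.12. Under normexp with bright backgrounds replaced, the changes were -0.26 for *CD80*, -0.27 for *CD86*, -0.08 for *PDCD1LG2* and -0.15 for *CD58*. Both low-gain arrays lay below both high-gain arrays for 5 of the 8 and above for 0, against 26.9% and 27.6% of all tested probes.

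Transcription factor and cytokine genes of T cells had a median log2 change of -0.03 over 13 tested of 25. By limma, 0 of 13 passed with or without the trend, and 5 had an unadjusted p under 0.05. *LEF1*, which encodes a transcription factor of naive T cells that crypt epithelium also uses, differed by 0.54 ± 0.11 and its other 2 probes ran up to 0.99. *STAT5A* and *STAT6*, genes of cytokine signal transducers, differed by -0.63 ± 0.15 and -0.49 ± 0.11, and their other probes by -0.36 and -0.09. The T helper 2 cytokine gene *IL4* differed by 0.52 ± 0.23. Its signal was low, with a processed intensity of 10.3 and 8.14 on the low-gain arrays and 7.72 and 6.31 on the high-gain arrays. Under normexp with bright backgrounds replaced, the changes were 0.47 for *LEF1*, -0.34 for *STAT5A*, -0.39 for *STAT6* and 0.21 for *IL4*.

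**Figure D3:**
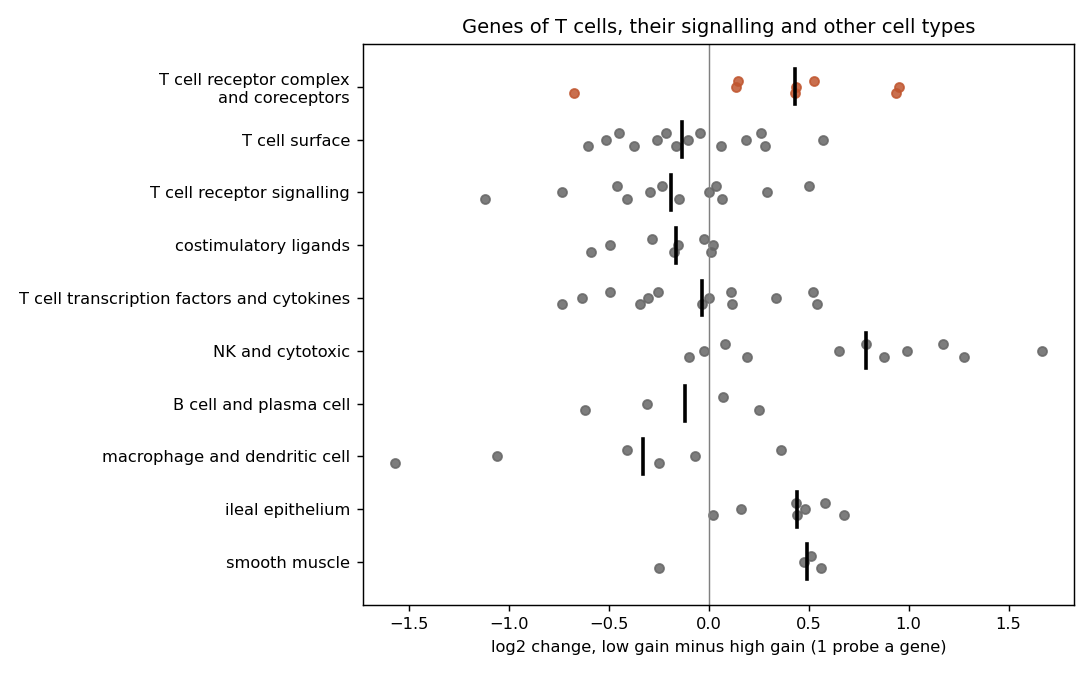
Log2 change, low gain minus high gain (horizontal axis), of each tested gene by list, with 1 probe a gene; each point is a gene and each black bar a list's median. The receptor complex and coreceptor genes (top, 8 genes) have a median of 0.43, the NK and cytotoxic genes one of 0.79, and the 4 lists of other T cell genes and ligands medians of -0.19 to -0.03.

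Marker genes of other cells in the gut wall were read on the same arrays. Of 11 tested NK and cytotoxic genes, some of which CD8+ T cells share, 9 had a higher mean in low gain. Over all named genes with 1 probe each, 53.4% did. In the list, 1 gene passed (*GZMK*), 7 passed with the trend, and the median log2 change was 0.79. The list's summed signal was 5.48 and 5.42 (log2) on the low-gain arrays and 4.75 and 4.88 on the high-gain arrays. It separated the groups, as *CD8A* did on A_72_P077466 but not on A_72_P685866. Such separation was common, with 27.6% of all tested probes above and 26.9% below in low gain. The epithelial, smooth muscle and B cell sums given next also lay above in low gain, and the macrophage sum below. The brightest genes weigh most in such a sum. *GZMK* rose by 1.67 ± 0.10 (limma adjusted p = 0.0383), while *GZMH* (1.28 ± 0.10), *GZMB* (1.17 ± 0.10) and *GZMA* (0.99 ± 0.10) did not pass without the trend (limma adjusted p of 0.0587 to 0.0938). *NCR1*, an NK receptor gene, was well above background on all arrays, but its signal was low. Its processed intensity was 13.8 and 7.29 on the low-gain arrays and 10.6 and 12.9 on the high-gain arrays. The low-gain arrays differed by 1.0998 in log2, and the log2 change of -0.10 had a 95% interval of -1.25 to 1.06. The part of these cells in the *CD8A*, *CD2* and *CD247* differences was not tested.

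Epithelial genes were well above background on all arrays for 7 of 7 tested, among them the ileal bile acid binding protein gene *FABP6*, which differed by 0.02. The summed epithelial signal was 9.64 and 9.69 on the low-gain arrays and 9.36 and 9.51 on the high-gain arrays, and 0 of 7 passed without the trend (4 had an unadjusted p under 0.05) and 4 rose with it, *ANPEP* (0.68 ± 0.10), *CDH1* (0.58 ± 0.10), *FABP2* (0.48 ± 0.12) and *KRT8* (0.44 ± 0.10), while *APOA4* differed by 0.44 ± 0.17. The 4 smooth muscle genes summed to 8.11 and 8.08 in low gain and 7.73 and 7.71 in high gain, with 0 of 4 passed (3 at an unadjusted p under 0.05) and 3 risen with the trend (*MYLK*, *DES* and *CNN1*), while *ACTA2* differed by -0.25. Probes of these smooth muscle genes disagreed in sign for *DES* (-0.34 to 0.51 over 3 probes) and *ACTA2* (-0.61 to 0.23 over 4). Among the epithelial genes, those of *KRT8* also did (-0.30 to 0.44 over 3 probes), and those of *ANPEP* ran from 0.14 to 0.68. Macrophage and dendritic cell genes summed to 4.71 and 4.74 in low gain and 4.81 and 4.80 in high gain, with 0 of 6 passed (4 at an unadjusted p under 0.05) and 2 fallen with the trend, *CD1.1* (-1.06 ± 0.14) and *CD163* (-0.41 ± 0.10). In the same list *FCGR3A*, an Fc receptor gene that NK cells also use, differed by 0.36 ± 0.11 on non-overlapping arrays, with 0.36 to 0.49 over its 3 probes (limma adjusted p = 0.229, and 0.0698 with the trend). *CD14* differed by -0.25 and its other probe by -1.11. B cell and plasma cell genes summed to 6.45 and 6.29 in low gain and 6.13 and 6.27 in high gain, with 0 of 4 passed with or without the trend (1 at an unadjusted p under 0.05). *CD79A*, the gene of a B cell receptor signalling chain, differed by -0.31 and *XBP1*, a transcription factor gene of plasma cells, by 0.25, with its 6 probes between -0.31 and 0.25. The share of these cells in each slice was not measured, and its part in the T cell gene differences was not tested.

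Across other ways of processing, 9 of the 11 probes kept the sign of their change in each of the 13 alternatives. The exceptions were *CD4* (A_72_P077421) and *CD8A* (A_72_P685866), which kept it in 11. The brighter *CD8A* probe ran from 0.46 to 1.03, and *CD247* from -0.75 to -0.59 on A_72_P374908 and from -0.94 to -0.61 on A_72_P186391. *CD3E* ran from 0.22 to 0.72, and *FOXP3* from 0.11 to 1.36, the widest range of the 11. Some alternatives (the filter, the trend, the letter block) leave the changes themselves as they are, which fixes part of this count. In the authors' deposited values, the changes were 0.998 for *CD8A* (A_72_P077466), -0.71 and -0.92 for *CD247*, and 0.48 for *CD3E*.

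**Figure D4:**
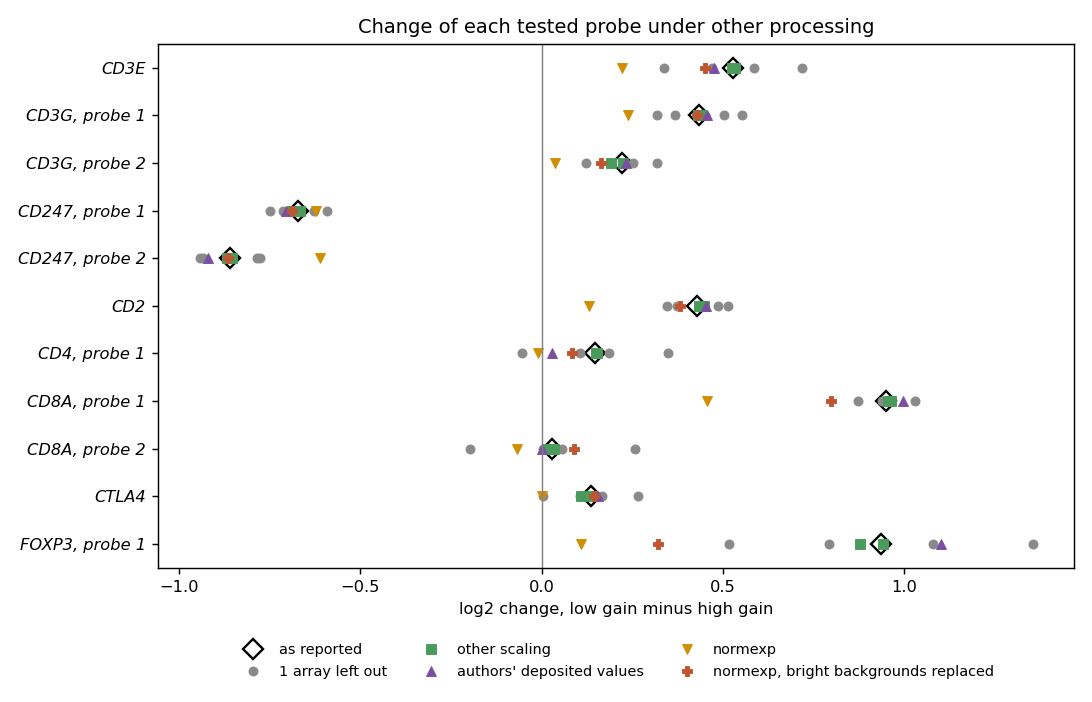
Log2 change, low gain minus high gain (horizontal axis), of the 11 tested probes as reported (diamonds) and with 1 array left out, another scaling, the authors' deposited values or 2 forms of normexp background correction. The points of both *CD247* probes stay below 0 and those of *CD8A* probe 1 above it, while those of *CD8A* probe 2 and *CD4* fall on both sides.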

How the data were processed

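Spot signals of 4 Agilent arrays of 1 colour were analysed. The deposited scanner files hold intensity values. Per the file headers, the software was Agilent Feature Extraction, version 10.7.3.1. It gave a processed signal after the software's background treatment, and median pixel values of spot and local background. A log2 table deposited by the authors was used as an alternative, and the sources used here do not give the steps behind it. Its columns follow log2 processed signal of the same array (r 0.982 to 0.993), with column medians of 5.62 and 5.59 in low gain and 5.67 and 5.60 in high gain. They are not centred per gene.

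Processed signals were taken to log2, and each array was shifted so that the 75th percentile of its 43803 non-control spots was 0. Flagged outlier spots were left out, repeat spots averaged, and 48 of 43603 probes with a missing value dropped. A probe was tested if well above background on both arrays of at least 1 group (33265 probes). Low gain minus high gain was fitted with limma 3.58.1 in R 4.3.3 (lmFit, eBayes) over all tested probes, with Benjamini-Hochberg adjustment and a threshold of 0.05. The scripts were tested on simulated data.

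Of 5779 probes with a RefSeq accession, 5461 matched the NCBI table of Sscrofa11.1 without versions and named 2389 genes; other probes stayed unnamed. The files name no build, so no coordinates are given. Lists use each gene's probe with the highest mean signal; named are all members, list genes past the test and up to 4 per list with the largest change, well above background on all arrays. A gene of the lists that this rule names is not reported here. *CD3D*, *LCK*, *FABP6* and *NCR1* were added as the complex's remaining CD3 chain, its kinase and markers of ileal epithelium and NK cells. The members and lists were chosen with earlier results of these data known. Alternatives were other scalings, normexp (offset 50), other filters, an intensity trend, a letter block and leaving out arrays. Arrays a and b differed in 32 probes spotted repeatedly by 1.28 (low gain) and 1.53 (high gain) times the SD expected from the repeat spots. The number of arrays limits precision.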

Additional observations from a re-analysis of the deposited data

How the results depend on the processing

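The number of probes past limma's test was 80 of 33265 and depended strongly on the fit, and so did that among the 11 receptor complex and coreceptor probes, which was 0. Median centring called 163 probes (0 of the 11), no filter on dim probes 12 (0 of 14), and normexp, a filter for signal on all 4 arrays, or the letter as a replicate block 0 probes each. Over those 3 fits, 0, 6071 and 4703 probes had an unadjusted p under 0.05. The intensity trend called 1250 probes and 3 of the 11, namely *CD8A* (A_72_P077466) and both *CD247* probes. Normexp with bright backgrounds replaced, chosen after seeing the data because 23 and 25 spots of low-gain array a and high-gain array b had a local background over 5 times the median, called 865 probes and the same 3 of the 11. Leaving out 1 array gave 0 to 37 probes and 0 of the 11. With the trend, also added after seeing the data, leaving out low-gain array a gave 197 probes (0 of the 11), low-gain array b 462 (1), high-gain array a 130 (0) and high-gain array b 542 (3). Fits without 1 array have 1 residual degree of freedom in place of 2, and the lone array is assumed to vary like the other group. The letters did not pair the arrays (correlation of a minus b differences between groups -0.037).

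The median log2 change over the 11 probes, 0.22, was 0.038 under normexp, 0.43 with 1 probe a gene, 0.38 with each gene's probes averaged, and 0.17 to 0.35 with 1 array left out. Under normexp with bright backgrounds replaced, it was 0.17, and the median over all tested probes was 0.07. The list medians were then -0.02 (T cell surface), -0.12 (signalling), -0.06 (costimulatory ligands), 0.01 (transcription factors and cytokines) and 0.66 (NK and cytotoxic). *CD4* (A_72_P077421) turned to -0.0090 under normexp, ran from -0.055 to 0.35 with 1 array left out, and was -0.055 without low-gain array a with the trend. *CD8A* (A_72_P685866) turned to -0.067 under normexp, ran from -0.20 to 0.26 with 1 array left out, and was -0.20 without low-gain array a with the trend. The cause of these shifts was not tested. Low signal limits *FOXP3*, *CTLA4* and the dimmer probes of *CD3G*, *CD4* and *CD8A*.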
